A study of Mus musculus with 2 samples.

Results

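Expression of 5 kidney injury and repair genes, Clu, Lcn2, Havcr1, Spp1 and Sox9, was examined in cultured mouse renal progenitors with and without panobinostat, an inhibitor of histone deacetylases. The genes were taken by name from the 19394 genes of the deposited count matrix, and all 5 had a row. The cells grew out of glomeruli isolated from kidney cortex of healthy 9-week-old C57Bl/6 mice. These mice carry Pax2.rtTA and TetO.Cre, so that the Pax2 promoter drives an inducible Cre, together with the reporter R26.mT/mG, which turns recombined cells to GFP. GFP-positive cells were sorted after 5 days of outgrowth, starved for 16 h and kept for 48 h with DMSO vehicle or with 0.2 µM panobinostat, in medium with 10% serum. Both groups therefore share genotype, sort, culture and serum, and they differ by the drug. The labels give 2 mice and 1 single-cell library per treatment, and do not say whether the mice were pooled. Without replicate libraries no treatment test was possible, and intervals express counting error alone. An effect of the drug and any other way in which the libraries differ cannot be told apart.

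These genes are used as readouts of epithelial damage in the kidney. Clu encodes clusterin, a secreted chaperone, and Spp1 encodes osteopontin, a secreted phosphoprotein that binds integrins and CD44. Lcn2 encodes lipocalin 2, also called NGAL, which binds iron-carrying siderophores and is measured in urine as a marker of acute injury. Havcr1 encodes KIM-1, a membrane receptor for phosphatidylserine through which injured proximal tubule cells engulf dying neighbours. Sox9 encodes a transcription factor that is switched on in surviving tubule cells during repair. Healthy tubules carry little Havcr1 and Sox9, whereas clusterin and osteopontin are also made in the uninjured kidney.

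The vehicle library held 2854 cells with a median of 27924 UMIs (unique molecular identifiers, each standing for 1 captured transcript), and the panobinostat library 2281 cells with a median of 42394 UMIs. No barcode occurred in both libraries. All 11 parietal epithelial and progenitor markers were detected, with a summed level of 9283 CPM (counts per 1000000 UMIs of the library) with vehicle and 5365 CPM with panobinostat. Most of both sums came from 2 keratin genes, Krt8 (4587 and 1710 CPM) and Krt18 (3301 and 2295 CPM), which are also on the wider injury list used below. Markers of other cells were low. The 8 leukocyte markers in the matrix summed to 5.55 and 68.8 CPM, of which the lysosomal gene Cd68 gave 4.11 and 65.5 CPM, while Ptprc, which encodes the pan-leukocyte antigen CD45, stood at 0.606 and 1.98 CPM. The 8 mesenchymal markers summed to 2.25 and 8.24 CPM, the 7 endothelial markers to 23.4 and 86.0 CPM, the 7 podocyte markers to 14.1 and 29.4 CPM and the 11 tubule markers to 20.1 and 73.7 CPM. With vehicle, Umod, a defining transcript of the thick ascending limb, and the podocyte gene Wt1 had 0 UMIs, which allows up to 0.0331 CPM. Whether these other cell types had a part in the levels of the 5 genes was not tested.

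Promoter sequence was taken from RefSeq (GRCm38.p6) for the 3 genes of the set that its table holds, and is shown to give the sequence context of these genes, of which Havcr1 was called lower and Lcn2 and Spp1 had no call. Windows hold the 250 bases before an annotated start site and are written 5′ to 3′ on the gene's strand. The Spp1 window lies at chr5:104434861-104435110 (plus strand) and the Havcr1 window at chr11:46750261-46750510 (plus strand), inside the Havcr1 gene. Havcr1 has 3 start sites in this table and Spp1 has 2; the first is shown for Spp1 and the second for Havcr1, whose first window overlaps a UTR. For Lcn2 the stretch chr2:32387798-32387989 (minus strand) is shown, which leaves out the last 58 bases because GENCODE annotates them as UTR of another transcript, and it too lies inside the annotated gene. Capitals mark matches to TATA box, GC box, NF-kB, AP-1 or C/EBP motifs.
Lcn2: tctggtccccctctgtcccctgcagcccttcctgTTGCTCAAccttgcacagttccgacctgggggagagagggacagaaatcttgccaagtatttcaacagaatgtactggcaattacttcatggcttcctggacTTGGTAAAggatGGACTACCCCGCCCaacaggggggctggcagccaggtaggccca
Spp1: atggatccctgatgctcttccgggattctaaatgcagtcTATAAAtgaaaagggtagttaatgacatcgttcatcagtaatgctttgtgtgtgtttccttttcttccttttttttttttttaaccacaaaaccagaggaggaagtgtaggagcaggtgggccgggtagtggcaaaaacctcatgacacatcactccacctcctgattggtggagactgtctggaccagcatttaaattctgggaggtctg
Havcr1: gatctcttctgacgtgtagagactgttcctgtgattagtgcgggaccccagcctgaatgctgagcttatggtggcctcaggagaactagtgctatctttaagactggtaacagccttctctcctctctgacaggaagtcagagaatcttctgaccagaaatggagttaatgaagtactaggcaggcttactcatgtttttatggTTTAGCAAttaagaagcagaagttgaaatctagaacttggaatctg
Motifs were searched on both strands as TATAAA for the TATA box, GGGCGG for the GC box, TGANTCA for AP-1, TTNNNCAA for C/EBP, and a run of 3 G, any 5 bases and 2 C for NF-kB. In the Lcn2 window a match to the NF-kB letters overlapped a GC box match, and C/EBP letters matched at 2 other places, 1 of them on both strands. The Spp1 window held 1 TATA box match and the Havcr1 window 1 C/EBP match, and none of the 3 windows held the AP-1 letters. Among 32851 promoter windows of the same length, 45.8% held the NF-kB letters, 32.7% the GC box, 33.3% the C/EBP letters, 12.4% the TATA box and 6.75% the AP-1 letters. A looser search with the ends of the serum response element, 2 C, any 6 bases and 2 G, matched in all 3 windows, against 67.1% of all windows. Such matches describe letters only. The counts come from 3′ ends of transcripts and do not show which start site was used.

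The 5 genes did not move as a group. Clu was 2.96-fold higher with panobinostat, Havcr1 was 3.995-fold lower, and Lcn2, Spp1 and Sox9 stayed under 2-fold. Calls required a 2-fold or larger difference in CPM, a ratio whose 95% interval leaves out 1, and 10 CPM or more in either library. Of all 8872 genes past that floor 9.85% were called higher and 11.0% lower, and all 5 members passed it in both libraries. The ratio of Clu was above that of 94.9% of these genes, Spp1 above 88.1%, Lcn2 above 64.3%, Sox9 above 19.5% and Havcr1 above 2.83%.

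**Figure D1:**
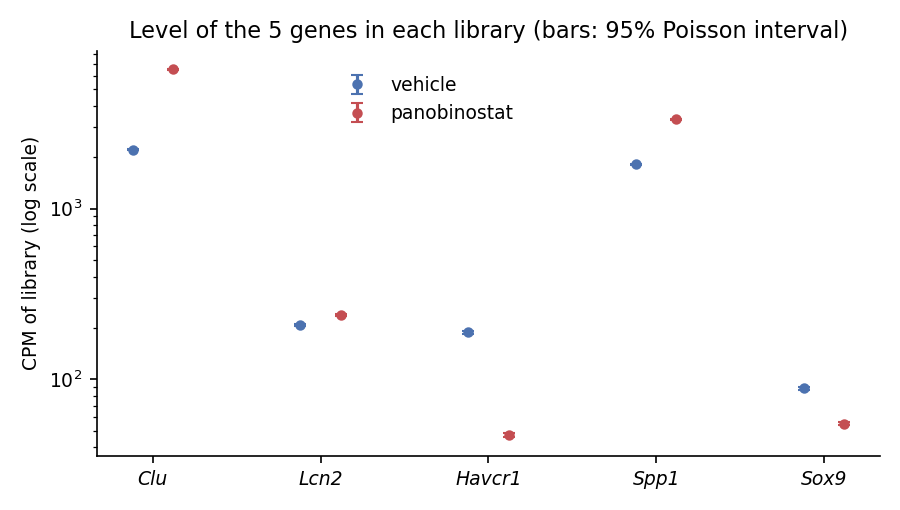
Level of each gene in the vehicle (blue) and panobinostat (red) library, in CPM on a log scale, with 95% Poisson intervals that are smaller than most dots. Clu and Spp1 were higher with panobinostat, Havcr1 and Sox9 lower, and the Lcn2 levels lie close together.

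Clusterin transcript stood at 2214 CPM with vehicle (200911 UMIs, 95% Poisson interval 2204 to 2223 CPM) and 6545 CPM with panobinostat (681864 UMIs, 6529 to 6560 CPM). The log2 ratio was 1.56 (95% interval 1.56 to 1.57). The gene lies on chromosome 14 from 65968483 to 65981547 in GRCm38, and no other annotated gene overlaps it. The difference was present from the low to the high end of the cells. To compare cells at equal depth, each was thinned to 18663 UMIs, which left 2401 vehicle and 2221 panobinostat cells. The 10th percentile of Clu UMIs per thinned cell went from 3 to 15, the median from 18 to 64 and the 90th percentile from 104 to 355. The lowest cells thus differed at least as much as the highest, 5.00-fold at the 10th percentile against 3.41-fold at the 90th. At least 1 Clu UMI was seen in 98.6% of thinned vehicle cells (exact binomial interval 98.0 to 99.0) and all but 1 of the 2221 panobinostat cells, against 98.8% and 99.9% of unthinned cells.

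Osteopontin transcript stood at 1816 CPM with vehicle (164800 UMIs, interval 1807 to 1825) and 3331 CPM with panobinostat (347015 UMIs, 3320 to 3342). This is a 1.83-fold difference (log2 ratio 0.88, interval 0.87 to 0.88), under the 2-fold needed for a call. Unlike for Clu, the gap widened towards the cells that held most. The 10th percentile per thinned cell was 3 with vehicle and 4 with panobinostat, the median 20 and 34, and the 90th percentile 86 and 181, so that cells near the bottom differed 1.33-fold and those near the top 2.10-fold. Nearly all cells held the transcript: the share with a Spp1 UMI was 97.2% (96.5 to 97.8) with vehicle and 98.6% (98.1 to 99.1) with panobinostat after thinning, and 97.5% and 99.5% before it. Spp1 lies on chromosome 5 from 104435118 to 104441050 in GRCm38.

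Lipocalin 2 transcript was nearly level between the libraries, and in each most of its UMIs were held by few cells. It stood at 208.0 CPM with vehicle (18877 UMIs, interval 205.0 to 211.0) and 238.4 CPM with panobinostat (24838 UMIs, 235.4 to 241.4), a log2 ratio of 0.20 (interval 0.17 to 0.22). The 10% of thinned cells with most Lcn2 held 82.5% of its UMIs with vehicle and 81.9% with panobinostat. The median cell had 0 UMIs in both libraries, while single thinned cells reached 231 and 250. At least 1 UMI was seen in 38.2% (36.3 to 40.2) of vehicle cells and 35.0% (33.0 to 37.1) of panobinostat cells after thinning, and in 44.3% and 43.2% before it. Because these shares run against the CPM, no order is read from them. The direction of Lcn2 depended on which vehicle cells were taken. Over cells called G1 by their cell cycle scores, 1027 with vehicle and 2278 with panobinostat, Lcn2 stood at 347.8 and 238.6 CPM, a log2 ratio of -0.54 (interval -0.58 to -0.51). Lcn2 lies on chromosome 2 from 32384633 to 32388252 in GRCm38.

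KIM-1 transcript had the largest fold of the 5 genes. Havcr1 stood at 187.9 CPM with vehicle (17056 UMIs, interval 185.1 to 190.8) and 47.0 CPM with panobinostat (4901 UMIs, 45.7 to 48.4). The log2 ratio was -1.998 (interval -2.04 to -1.95). At least 1 UMI was seen in 59.1% (57.1 to 61.1) of vehicle cells and 25.5% (23.7 to 27.4) of panobinostat cells after thinning, and in 63.8% and 35.2% before it. The 90th percentile per thinned cell was 11 UMIs with vehicle and 3 with panobinostat. Both fewer cells with a UMI and fewer UMIs in the upper cells were thus seen. Havcr1 lies on chromosome 11 from 46735080 to 46779578 in GRCm38. Its relative Timd2, on the opposite strand and 28019 bp away, had few UMIs, at 5.01 and 1.51 CPM (log2 ratio -1.73). Timd4 and Havcr2, which belong to the same family, stayed at 0.463 CPM or lower in both libraries. Reads could be split between close relatives, which was not tested.

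Sox9 transcript was moderately lower with panobinostat. It stood at 88.3 CPM with vehicle (8015 UMIs, interval 86.4 to 90.3) and 55.0 CPM with panobinostat (5734 UMIs, 53.6 to 56.5), 1.60-fold lower (log2 ratio -0.68, interval -0.73 to -0.63) and not past the 2-fold rule. The median thinned cell held 1 UMI in both libraries. At least 1 UMI was seen in 68.7% (66.8 to 70.6) of vehicle cells and 53.1% (51.0 to 55.2) of panobinostat cells at equal depth, whereas the unthinned shares were 75.8% in both libraries. Sox9 also had the least spread between cells by its Fano factor. Its Fano factor, the variance of UMIs per thinned cell over their mean, was 1.83 with vehicle and 1.68 with panobinostat, where pure counting noise gives 1. The Fano factors of the other members lay between 6.44 for Havcr1 with panobinostat and 210.1 for Clu with panobinostat. They were not corrected for level, and means ran from 0.902 UMIs (Havcr1) to 131.4 UMIs (Clu) per thinned panobinostat cell. The top 10% of cells held 32.9% of Sox9 UMIs with vehicle and 39.9% with panobinostat. For Clu these shares were 47.3% and 41.7%, and for Spp1 41.6% and 42.7%. Sox9 lies on chromosome 11 from 112782224 to 112787760 in GRCm38.

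**Figure D2:**
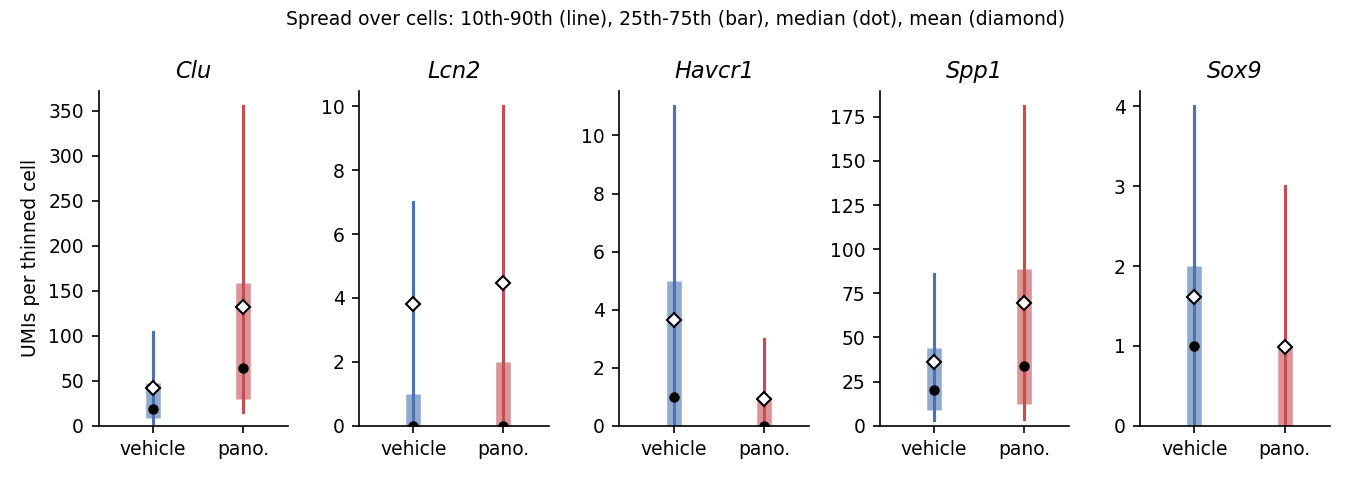
UMIs per cell after thinning every cell to the same depth, for each gene (panels, linear axes that start at 0 and differ between genes) in the vehicle and panobinostat libraries. Lines span the 10th to 90th percentile, bars the 25th to 75th, dots are medians and diamonds means. With panobinostat the 25th percentile of Clu, 30 UMIs, lies above the vehicle median of 18, and the Lcn2 median is 0 in both libraries although its means are 3.83 and 4.48; the Sox9 median with panobinostat, 1, is hidden by the diamond.

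Genes of the cell cycle were lower with panobinostat, and within the vehicle library the members differed by phase. Of the listed S-phase genes past the floor 36 of 42 were called lower, and of the G2/M genes 47 of 51, against 11.0% of all genes. Mki67, a marker of proliferating cells, stood at 132.5 CPM with vehicle and at 1.68 CPM with panobinostat. Of the vehicle cells 1027 were called G1, 795 S and 1032 G2/M from lists of S-phase and mitotic genes, against 2278, 3 and 0 of the panobinostat cells. Clu stood at 3272 CPM in vehicle cells called G1, 1887 in S and 1494 in G2/M. Lcn2 stood at 347.8, 131.8 and 134.2 CPM. Havcr1 ran the other way, at 132.4, 205.5 and 225.4 CPM. Clu and Lcn2 were thus 2.19-fold and 2.59-fold higher in G1 than in G2/M cells, and Havcr1 was 1.70-fold higher in G2/M than in G1 cells. Spp1 (2043, 1736 and 1668 CPM) and Sox9 (98.9, 77.5 and 85.9 CPM) differed less between phases.

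With cells called G1 in both libraries the contrasts of Clu and Havcr1 were smaller and kept their calls. Clu was then 2.00-fold higher (log2 ratio 1.00, interval 0.99 to 1.01), which is at the edge of the rule, and Havcr1 2.81-fold lower (log2 ratio -1.49, interval -1.55 to -1.43). Of 8659 genes past the floor in these cells 9.02% were called higher and 7.13% lower. Spp1 was 1.63-fold higher and Sox9 1.80-fold lower, both under 2-fold as before. A phase call ranks a cell against all others scored with it, and G1 cells of the libraries may differ otherwise.

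Within each library, cells rich in Clu were poor in Havcr1. Thinned cells were put in 4 equal bins by their Clu UMIs. With vehicle, Havcr1 stood at 415.0 CPM in the bin with least Clu, then at 219.0, 110.6 and 36.2 CPM. With panobinostat the bins had 103.3, 54.2, 29.6 and 6.18 CPM of Havcr1. From the first to the last bin Havcr1 was thus 11.5-fold lower with vehicle and 16.7-fold lower with panobinostat. At least 1 Havcr1 UMI was seen in 85.0% of vehicle cells in the lowest bin of Clu and 27.2% in the highest, and in 44.1% and 4.68% of panobinostat cells. All cells here have the same depth, and the bins of a library share that library. The split into bins was added after the values of these genes had been seen.

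The gradient of the other members along Clu was smaller. Spp1 ran from 1821 CPM in the lowest to 2161 CPM in the highest bin with vehicle, and from 3388 to 4185 CPM with panobinostat. Sox9 stood at 81.8 and 78.1 CPM with vehicle and 52.0 and 37.7 CPM with panobinostat. Lcn2 was higher in each next bin of vehicle cells (100.5, 213.4, 234.1 and 272.1 CPM), whereas in panobinostat cells it was highest in the third bin and lowest in the fourth (202.5, 270.8, 311.9 and 175.4 CPM).

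**Figure D3:**
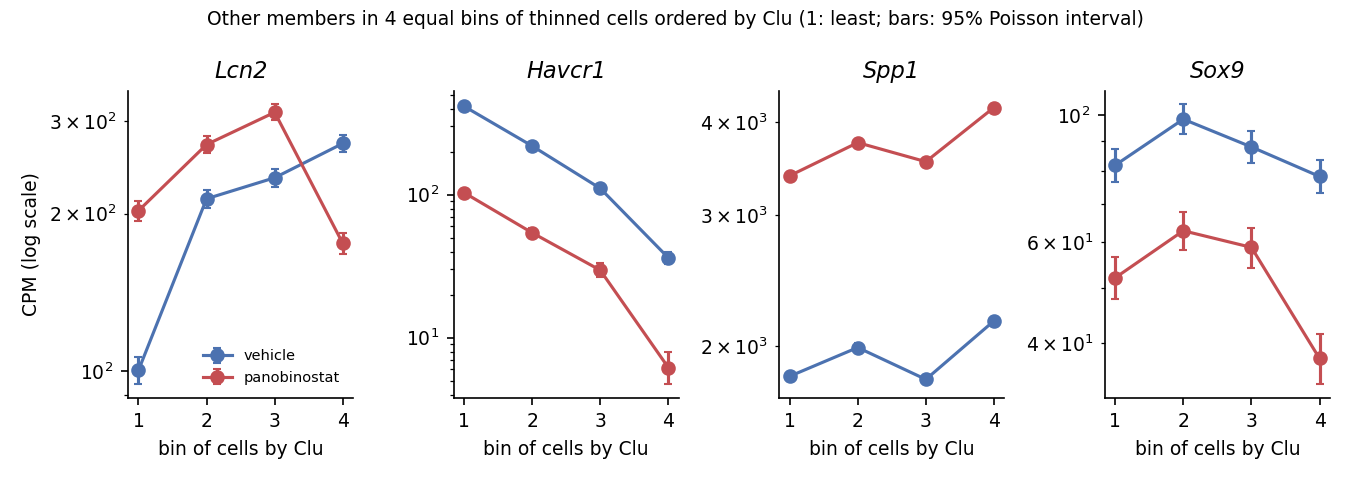
Level of Lcn2, Havcr1, Spp1 and Sox9 in 4 equal bins of thinned cells ordered by Clu, from least (1) to most (4), in CPM on log axes that differ between panels, with 95% Poisson intervals, for vehicle (blue) and panobinostat (red). The Havcr1 lines fall from 415.0 to 36.2 and from 103.3 to 6.18 CPM, while those of Spp1 and Sox9 change less than 2-fold.

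Correlations over cells, computed on log2(thinned count + 1) within a library and given as descriptions, show the same pairs. Clu and Havcr1 had r = -0.53 over 2401 vehicle cells and r = -0.34 over 2221 panobinostat cells. Over the 838 thinned vehicle cells called G1, r was -0.46. With the mean of each cluster taken out, it was -0.27 with vehicle and -0.19 with panobinostat. Havcr1 and Spp1 had r = 0.15 and 0.27, Lcn2 and Spp1 0.15 and 0.17, and Lcn2 and Havcr1 -0.12 and 0.18. Clu and Lcn2 had r = 0.12 and 0.03. The 4 pairs with Sox9 lay between -0.10 and 0.02. Values this close to 0 in sparse counts are not read as relations.

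Clusters were made within each library without the 5 genes and without the wider injury list, and are called by number. Against the level of the whole library, Clu and Havcr1 lay on opposite sides in V1, V3, V4, V5, P1, P2, P3 and P4. The Havcr1 difference was small in V1 (225.2 against 187.9 CPM) and P1 (53.6 against 47.0 CPM). In V6 both were low (666.4 CPM of Clu and 56.1 CPM of Havcr1). In V2 and P5 too, both genes lay below the level of the whole library. V2 had 1620 CPM of Clu and 165.0 of Havcr1, against 2214 and 187.9 over all vehicle cells. P5 had 4040 CPM of Clu and 0.509 of Havcr1, against 6545 and 47.0 over all panobinostat cells. In the vehicle library Clu was highest in cluster V4, at 6193 CPM, and next in V3, at 3043 CPM. Havcr1 was low in both, at 32.9 and 42.4 CPM. Clu was lowest in V5, at 497.1 CPM, where Havcr1 was highest, at 520.2 CPM. V4 was led by Clu itself, Ltc4s, Spink8, Cdkn1c and Ptges. V3 was led by Depdc7, Gm4610, Gata3, Tcp11l1 and Abcg2, and V5 by Vim, Xirp2, Aqp1, Col4a1 and Bst1. V4 held 16.3% of the vehicle cells and 43.1% of their Clu UMIs, and V5 held 15.5% of the cells and 39.0% of the Havcr1 UMIs. In V5 the tubule markers summed to 59.2 CPM and the endothelial markers to 64.1 CPM, each more than in the other vehicle clusters. Nearly all of this tubule sum was Aqp1, which averaged 61.9 CPM when each cell of V5 counts equally. V4 was 78.1% and V5 16.7% cells called G1, while V3, next to V4 in its Clu level, held 0% such cells.

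In the panobinostat library Clu reached 15284 CPM in cluster P2, which held 28.0% of the cells and 63.3% of the Clu UMIs, against 2088 to 4040 CPM in the other clusters. P2 was led by Kitl, Gata3, Clu, Pmp22 and Ptges. Havcr1 stood there at 2.16 CPM (61 UMIs, interval 1.65 to 2.77), and at 0.509 CPM (2 UMIs, interval 0.0617 to 1.84) in P5. P5 was led by the metallothioneins Mt1 and Mt2, Ddit3, Srxn1 and Pltp. In P4, with 131 cells, Havcr1 was highest at 166.4 CPM (interval 156.5 to 176.7), against 187.9 CPM in the whole vehicle library, and Clu lowest at 2088 CPM. P4 was led by Ccl20, Il5ra, Cldn16, Havcr1 and Ifit3. The Havcr1 intervals of P2 and P4 are far apart, which is no test, since P4 was picked as the highest cluster. These intervals do not measure the spread between cells. Because every cell passed the same sort, none could serve as a negative cell type for free RNA, whose part in low counts was not tested.

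Lcn2 and Spp1 were highest in the same clusters. In the vehicle library both peaked in V2, at 433.4 CPM for Lcn2 and 2187 CPM for Spp1, a cluster led by AI593442, Lcn2, Col5a2, Tgm2 and Nupr1. In the panobinostat library both peaked in P4, at 529.9 and 4807 CPM, and came next in P1, at 345.9 and 3574 CPM. With finer clusters (resolution 1.0) the panobinostat peaks parted. Lcn2 was highest at 550.3 CPM in a cluster of 305 cells and Spp1 at 8636 CPM in another of 163 cells, both largely of P1. The cluster of 163 cells held 535.6 CPM of Lcn2, close to the highest level. In the vehicle library at that resolution they parted only through a cluster of 38 cells. Lcn2 was highest in that small cluster (550.8 CPM, with 1011 CPM of Spp1). Without it, both genes were highest in a cluster of 454 cells, at 467.1 CPM for Lcn2 and 2852 CPM for Spp1. The leading genes of P1 included Cldn16, Sytl2, Anxa1 and Col5a2. The tubule markers, among them Cldn16, summed to 204.2 CPM in P4 and 109.0 CPM in P1 against 20.7 to 29.7 CPM in the other panobinostat clusters. Most of the sums in P4 and P1 was Cldn16, which averaged 189.0 and 98.3 CPM there when each cell counts equally. V2 and P1 held 52.0% and 66.0% of the Lcn2 UMIs of their libraries, and V2 was 82.2% cells called G1. Lcn2 was lowest in V5 (30.4 CPM) and in P3 (44.0 CPM) and P5 (45.1 CPM), whose intervals overlap. P3 was led by Sparc, Col4a1, Col4a2, Pdpn and Slco2a1.

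Sox9 was seen in all clusters. It ran from 68.3 CPM in V3 to 109.0 CPM in V2 among the 5 larger vehicle clusters, and from 38.6 CPM in P2 to 67.9 CPM in P1. Cluster V6, with 93 cells and a median of 14512 UMIs, stood apart with 13.2 CPM of Sox9 and 303.1 CPM of Spp1. V6 was led by the muscle actins and contractile genes Acta1, Cnn1, Myl9, Acta2 and Tagln. Its Lcn2 level, 233.8 CPM, lay within the range of V1 to V5.

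**Figure D4:**
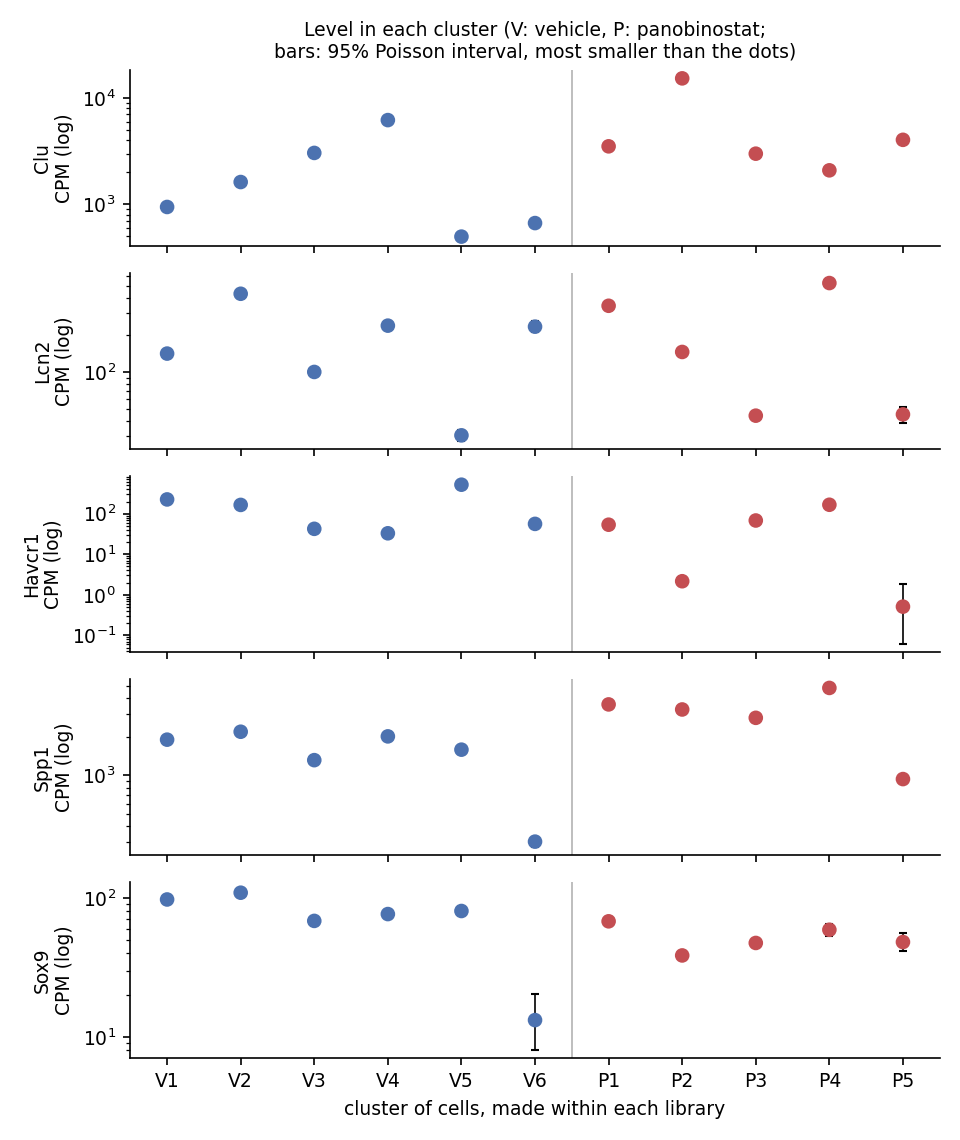
Level of the 5 genes (rows, CPM on log axes) in 6 vehicle clusters (V1 to V6, blue) and 5 panobinostat clusters (P1 to P5, red), with 95% Poisson intervals. Clu and Havcr1 lie on opposite sides of their whole-library levels (not drawn) in V1, V3 to V5 and P1 to P4. Havcr1 drops to 2.16 CPM in P2.

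The genes most like each member over cells, among those of at least 50 CPM, were partly the same in both libraries. For Clu they were Itm2b, Ly6e and Sfn with vehicle (r = 0.54, 0.51 and 0.51) and Cd24a, Itm2b and Ly6e with panobinostat (0.56, 0.55 and 0.50). For Havcr1 they were Fst, which encodes the activin-binding protein follistatin, Lhfp and Peg3 with vehicle (0.49, 0.45 and 0.42) and Fst, Tmem252 and Itga1 with panobinostat (0.41, 0.40 and 0.39). Among all these genes Clu had the lowest correlation with Havcr1 in both libraries. For Spp1 they were Ly6a, Ldhb and Tspan8 with vehicle (0.37, 0.36 and 0.32) and Ctsl, Cd9 and Tmem176b with panobinostat (0.33, 0.31 and 0.30). For Sox9 no gene passed r = 0.18.

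For Lcn2 the most alike genes were 1110008P14Rik, Pdzk1ip1 and Gstm1 with vehicle (0.34, 0.29 and 0.27) and Ldhb, Pdzk1ip1 and 1110008P14Rik with panobinostat (0.36, 0.33 and 0.32). The gene 1110008P14Rik, on chromosome 2 from 32377097 to 32381938 in GRCm38, is the next gene downstream of Lcn2 on the same strand, 2695 bp past its 3′ end. Its level was 144.8 CPM in the vehicle and 367.8 CPM in the panobinostat library, and it was called higher (log2 ratio 1.34), while Lcn2 was not. The gene Ciz1 overlaps it on the opposite strand. The other genes within 50 kb of Lcn2 had r between -0.02 and 0.12. Whether reads of 1 gene were counted for the other was not tested.

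Of 38 other genes used as injury markers, 34 had a row and 30 passed the floor; 4 were called higher (13.3%, against 9.85% of all genes past the floor) and 7 lower (23.3%, against 11.0%). Their median log2 ratio was -0.13, against -0.07 for all genes. Higher were the intermediate filament gene Vim (122.4 to 541.0 CPM, log2 ratio 2.14) and the adhesion molecule Icam1 (9.40 to 28.6 CPM, 1.61). Icam1 passed the floor through panobinostat alone. The cystatin Cst3 (291.1 to 731.4 CPM, 1.33) and the metalloproteinase inhibitor Timp1 (87.3 to 210.6 CPM, 1.27) were also higher. Lower were, among others, the adhesion molecule Vcam1 (14.7 to 5.04 CPM, -1.55) and the TWEAK receptor Tnfrsf12a (418.0 to 144.7 CPM, -1.53). Vcam1 passed the floor through vehicle alone. The cytokine Il34 (-1.53), the keratin Krt8 (4587 to 1710 CPM, -1.42) and the stress cytokine Gdf15 (2091 to 845.2 CPM, -1.31) were also lower. The other keratins Krt7, Krt18, Krt19 and Krt20 had ratios between -0.62 and 0.42 and no call.

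Of 28 genes linked to tubule repair 20 passed the floor, 2 were called higher and 3 lower, near the shares over all genes (9.85% and 11.0%), and the median was -0.01. The epidermal growth factor receptor ligand Areg was higher (24.5 to 94.6 CPM, 1.95), as was Wnt4 (13.1 to 34.6 CPM, 1.41). The mitotic transcription factor Foxm1 was lower (15.9 to 0.614 CPM, -4.70, but -1.41 and below the floor over cells called G1). So were the cytokine Lif (20.6 to 5.90 CPM, -1.80) and the Hippo effector Yap1 (-1.07). Foxm1 and Lif passed the floor through vehicle alone. Among the SOX genes of the list, Sox4 had a log2 ratio of 0.81 and Sox11 of 0.10, against -0.68 for Sox9. Of 23 profibrotic and failed-repair genes with a row 19 passed the floor, 1 was called higher (5.26%, against 9.85% of all genes) and 4 lower (21.1%, against 11.0%), with a median of -0.46. The matrix protein gene Tnc (91.3 to 13.3 CPM, -2.78), Vcam1, Nfkb1 (-1.14) and Pdgfa (-1.09) were lower. Vcam1, which is also on the wider injury list, passed the floor through vehicle alone. The colony stimulating factor Csf1 (64.7 to 218.2 CPM, 1.76) was higher. Beyond the 4 largest ratios of each list, genes of these 3 lists were named after their values were seen.

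**Figure D5:**
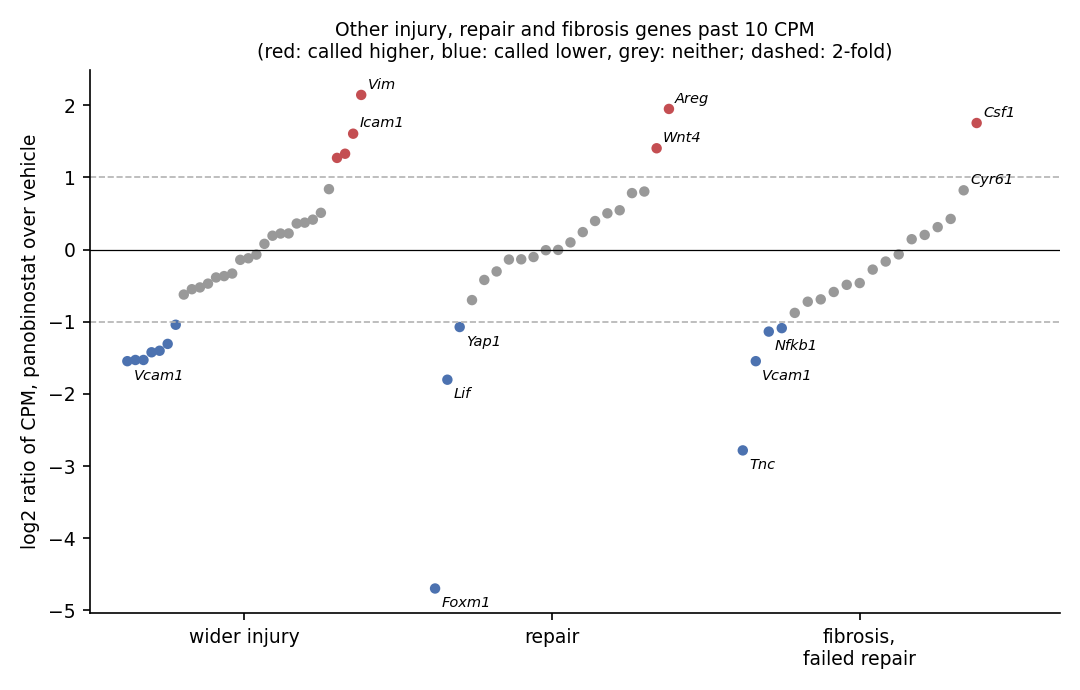
Log2 ratio of CPM, panobinostat over vehicle, for the genes of 3 related lists that passed 10 CPM, each dot 1 gene sorted within its list. Red dots are called higher, blue lower and grey neither. Most dots lie between the dashed 2-fold lines, and the lowest is Foxm1 at -4.70.

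Receptors and partners of the members form short lists. Of those past the floor, 0 of 6 were called higher and 1 lower for osteopontin, and 1 of 2 higher and 1 lower for lipocalin 2. For clusterin 2 of 5, for KIM-1 1 of 6 and for Sox9 1 of 2 were called higher. Among all genes 9.85% were called higher and 11.0% lower. The partners called higher, Lrp2 (on 2 of the lists), Vldlr, Gas6 and Etv5, all passed the floor through panobinostat alone. With a floor of 50 CPM only Gas6 of these was still past it. For osteopontin, the integrin chain Itgb6 was called lower (85.8 to 41.7 CPM, -1.04, and -0.97 with no call after median centring), while Itgav (172.3 to 309.1 CPM, 0.84), Itgb1 (1584 to 2136 CPM, 0.43), Itgb5 (0.19), Cd44 (-0.37) and the kinase Fam20c (0.44) had no call. For lipocalin 2, the endocytic receptor megalin, Lrp2, which also takes up clusterin, was called higher, at 0.650 and 11.7 CPM, and passed the floor through panobinostat alone. The gelatinase Mmp9, which lipocalin 2 can bind, was lower (34.8 to 3.65 CPM, -3.26) and passed the floor through vehicle alone. The receptor Slc22a17 stayed below the floor, at 0.551 and 5.09 CPM. For clusterin, the lipoprotein receptor Vldlr was higher (9.02 to 20.2 CPM, 1.16, but 0.61 and not called over cells called G1), and the chaperone Hspa5 (0.29) and the receptor Lrp8 (-0.10) had no call. For KIM-1, Gas6, a bridge between phosphatidylserine and the receptor Axl, was higher (9.86 to 71.9 CPM, 2.87). Axl itself (0.04), the bridging protein Mfge8 (0.54), the receptor Scarb1 (-0.36) and the sheddases Adam10 (0.45) and Adam17 (0.53) had no call. For Sox9, 2 of 13 listed relatives and targets with a row passed the floor. Etv5 was higher (6.28 to 16.1 CPM, 1.36), and Cdh6 (-0.88) had no call, though it was called lower over cells called G1 (-1.13) and, at the 2-fold edge, with DESeq2 size factors. The cartilage targets Acan (0.198 and 2.10 CPM) and Col2a1 (0.165 and 0.662 CPM) stayed below the floor and were named after their values were seen.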

How the data were processed

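Per the labels' protocols, cells were captured with 10x Chromium 3′ chemistry and sequenced on a NextSeq500. Cell Ranger 3.0.1 and mm10 were used, per the submitters' processing notes. Which gene models were counted is not given in the sources here. The authors deposited 1 matrix of raw, unnormalized UMI counts per gene and cell, in which every cell has at least 1798 genes and every gene at least 3 cells. The CTRL or PANO mark of a barcode gave its library.

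Counts were summed per library and scaled to CPM. Ratios have exact conditional binomial 95% intervals, levels exact Poisson and shares exact binomial (Clopper-Pearson) intervals. With 1 library per treatment, calls follow a rule of size and no p-value was computed. The rule was tested on simulated counts. These held counting noise alone, so they say nothing on variation between libraries. Each UMI marks the 3′ end of a transcript, so no length correction was made. Phases and clusters used scanpy 1.11.5 (counts scaled to 10000 per cell, 2000 variable genes, 30 components, 15 neighbours) and leidenalg 0.10.2 at resolution 0.5. A cluster's leading genes are the 5 of largest fold in mean CPM over the rest of its library (pseudocount 10 CPM, detected in 25% of cells or more). Scrublet called 14 of 5135 cells doublets (0.273%), too few to trust the caller, so doublets may remain. Coordinates came from GENCODE M21 (GRCm38), where 98.7% of the symbols were found.

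Alternatives were TMM factors (edgeR 4.0.16), DESeq2 1.42.0 size factors, median centring, other floors, folds, cell choices, thinning depths, resolutions and rank correlation. Named genes are all members, up to 4 genes per related list with the largest absolute ratio, partner genes past the floor, and the 3 most alike genes per member and library. Some genes that this rule names are not reported here. The members and lists were chosen with earlier results of these data known.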

Additional observations from a re-analysis of the deposited data

How the results depend on the processing

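No paired analysis was possible because each treatment has 1 library, and none could be left out. Of 45 log2 ratios of the 5 genes recomputed with other scalings or cells, 44 kept their direction and their side of the 2-fold rule, including all under TMM factors, DESeq2 size factors and median centring. Another 25 kept the ratio and changed only the rule; those with another floor could not change a call, since each gene exceeds 50 CPM in at least 1 library. These scalings shifted the median gene from -0.07 to -0.18 (TMM) and -0.19 (DESeq2). The exceptions were Lcn2 over cells called G1 (-0.54, reversed), Clu with a 3-fold rule (1.56, call lost), and Spp1 (0.88) and Sox9 (-0.68) with a 1.5-fold rule (calls gained). A 3-fold rule called 5.05% of all genes higher and 4.43% lower, and a 1.5-fold rule 19.3% and 23.2%. Leaving out the 5% of cells with most UMIs, an alternative chosen after seeing the data, kept all 5 (Lcn2 0.28, Spp1 0.88, Havcr1 -1.97).

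In the wider injury list a 3-fold rule left 2 of 30 higher and 0 lower. In the repair list the number higher was 5 of 28 with no floor and 4 of 25 with a floor of 1 CPM. It was 4 of 20 with a 1.5-fold rule, 1 of 11 with a floor of 50 CPM and 1 of 20 with a 3-fold rule. The number lower was 0 of 11 with a floor of 50 CPM. In the fibrosis list 3 of 23 were higher with no floor and 3 of 22 with a floor of 1 CPM. Of its 19 genes past 10 CPM, 2 were higher and 8 lower with a 1.5-fold rule, and 1 lower with a 3-fold rule. Over cells called G1 7 of 19 were lower, against 7.13% of all genes. Of all genes, 21.5% were called higher with no floor, 17.9% with a floor of 1 CPM and 8.07% with a floor of 50 CPM. With these floors 9.64%, 11.0% and 10.1% were called lower.

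Shares of cells depended on depth. Thinned to 24735 UMIs, they were 99.0% for Clu with vehicle, 43.9% and 39.0% for Lcn2 (vehicle, then panobinostat), 62.6% and 30.2% for Havcr1, 98.3% and 99.3% for Spp1 and 77.3% and 63.0% for Sox9. With at least 2 UMIs required they were 96.4% and 99.6% for Clu, 24.9% and 25.7% for Lcn2, 43.1% and 16.3% for Havcr1, 94.8% and 96.0% for Spp1 and 42.4% and 24.8% for Sox9.

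At resolution 0.3 the highest cluster held 6599 CPM of Clu and 2147 CPM of Spp1 with vehicle and 14110 CPM of Clu with panobinostat. At resolution 1.0, with the smallest clusters left out, it held 6363 CPM of Clu, 467.1 of Lcn2, 562.7 of Havcr1 and 2852 of Spp1 with vehicle. With panobinostat it held 18187 of Clu, 550.3 of Lcn2, 8636 of Spp1 and 76.5 of Sox9. A vehicle cluster of 38 cells, which was left out, held 550.8 CPM of Lcn2. Among correlations, that of Clu and Lcn2 in vehicle cells was -0.0048 over cells called G1. The cause of these changes was not tested beyond what each setting does by construction.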
